A study of Mus musculus with 9 samples.

Results

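Toll-like receptors are the membrane receptors through which microglia, the resident myeloid cells of the brain, sense microbial and other danger-associated molecules. They were followed here in primary mouse microglia through the mRNA values of 10 genes, Tlr1, Tlr2, Tlr3, Tlr4, Tlr5, Tlr6, Tlr7, Tlr8, Tlr9 and Tlr13, which were taken by gene symbol from a table of 21212 rows. Each had 1 row and all 10 were measured on every array. Tlr1, Tlr2, Tlr4, Tlr5 and Tlr6 are receptors of the cell surface (5 genes), and Tlr3, Tlr7, Tlr8, Tlr9 and Tlr13 are receptors of the endosome (5 genes).

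The cells came from the pooled brains of litters of wild-type CD-1 pups at P0 to P1. According to the methods they were enriched on a Percoll gradient and by adherence, so the cultures are enriched for microglia and were not sorted by a marker. All cultures had 10 ng/ml M-CSF and 10 ng/ml GM-CSF for 5 to 7 days and were put in serum-free medium overnight. They were then given LPS at 100 ng/ml (the M1-skewing stimulus, 3 arrays), IL-4 at 20 ng/ml (the M2a-skewing stimulus, 3 arrays) or an equal volume of PBS (resting cells, 3 arrays) for 4 h. Total RNA was measured on the Affymetrix Mouse Exon 1.0 ST Array, and every value below is a log2 expression value, so a difference of 1 is a doubling. A gene counts as called where the linear model over all 9 arrays (limma) gave it an adjusted p under 0.05, the adjustment running over every row of the table. The labels do not say that the 3 arrays of a condition came from separate cultures, so the p-values reflect only how far these arrays scatter, and that scatter may be technical.

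Toll-like receptors bind their ligands with an outer domain of leucine-rich repeats and signal through an inner TIR domain. The surface receptors recognize mainly microbial lipids and proteins, whereas the endosomal receptors recognize nucleic acids and reach the endosome with the chaperone Unc93b1. Most signal through the adaptor Myd88 to NF-κB, Tlr3 signals through Ticam1, and Tlr4, the receptor of LPS itself, uses both.

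Macrophage genes were high on all 9 arrays, with Tyrobp, the adaptor of Trem2, at 12.16 (LPS), 12.26 (IL-4) and 12.45 (PBS). Of the 14 measured microglia and macrophage markers, Tmem119, Siglech and Gpr34, which are used to tell resident microglia, lay below the array median on all 9 arrays. Others of the list, Cx3cr1 (9.75 with PBS), P2ry12 (8.34) and Fcrls (8.47), lay below it on 0, 0 and 1 of the arrays. The mean of the 14 markers was 8.83 to 9.19 on the LPS arrays, 9.46 to 9.57 on the IL-4 arrays and 9.27 to 10.03 on the PBS arrays. LPS replicate 3 and PBS replicate 3 stood apart from the other arrays of their conditions. All 11 measured markers of ciliated ependymal cells were highest on these arrays within their conditions, and the mean of the list ranged over 6.93 to 8.69 with LPS, 8.41 to 8.68 with IL-4 and 7.27 to 9.06 with PBS. Oligodendrocyte lineage markers were also higher on replicate 3, with 8.39 against 7.40 and 7.43 among the LPS arrays and 8.58 against 7.62 and 7.58 among the PBS arrays. Astrocyte markers did likewise, with 9.96 against 9.54 and 9.53 (LPS) and 10.07 against 9.55 and 9.55 (PBS), and of the 14 microglia and macrophage markers 9 were highest on LPS replicate 3 and 13 on PBS replicate 3. In such cultures fewer cells of a type and less RNA per cell cannot be told apart.

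The 250 bases before a start site in the RefSeq promoter table are shown for 4 receptors with large changes, so that these sequences can be read beside the values (mouse GRCm38.p6). Windows were held for 8 of the 10 genes, and those of Tlr4 and Tlr7 were not used here. Tlr2 and Tlr3 rose most with LPS, Tlr8 was lower with LPS and higher with IL-4, and Tlr13 fell most with LPS. The sequences run 5′ to 3′ on the strand of the gene and end at the base before the start site of the table. That site is the outer end of the annotated gene for Tlr8 and Tlr13. For Tlr2 and Tlr3 it lies 216 and 695 bases inside the annotated gene, so most of the Tlr2 sequence and all of the Tlr3 sequence fall within the gene span. Positions below are counted from the start site of the table. Capitals mark a match to the NF-κB consensus in Tlr2 and Tlr3, to the STAT6-type element TTCNNNNGAA in Tlr8 and to the PU.1-type element GAGGAA in Tlr13.
Tlr2 (chr3:83841609-83841858, minus strand): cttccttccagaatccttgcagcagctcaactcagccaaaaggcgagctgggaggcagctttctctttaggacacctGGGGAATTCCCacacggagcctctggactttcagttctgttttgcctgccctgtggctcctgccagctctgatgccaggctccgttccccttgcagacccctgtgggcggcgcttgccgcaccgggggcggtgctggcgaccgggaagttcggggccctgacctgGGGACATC
Tlr3 (chr8:45410381-45410630, minus strand): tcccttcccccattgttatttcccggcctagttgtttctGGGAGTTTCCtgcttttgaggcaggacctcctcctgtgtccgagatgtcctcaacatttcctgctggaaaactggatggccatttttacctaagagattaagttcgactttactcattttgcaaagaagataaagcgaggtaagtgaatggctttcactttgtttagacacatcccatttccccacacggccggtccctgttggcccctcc
Tlr8 (chrX:167264330-167264579, minus strand): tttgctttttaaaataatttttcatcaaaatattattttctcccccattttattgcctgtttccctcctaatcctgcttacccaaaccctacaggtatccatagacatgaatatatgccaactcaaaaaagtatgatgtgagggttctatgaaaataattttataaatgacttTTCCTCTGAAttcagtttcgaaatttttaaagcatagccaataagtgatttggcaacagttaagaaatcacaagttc
Tlr13 (chrX:106143025-106143274, plus strand): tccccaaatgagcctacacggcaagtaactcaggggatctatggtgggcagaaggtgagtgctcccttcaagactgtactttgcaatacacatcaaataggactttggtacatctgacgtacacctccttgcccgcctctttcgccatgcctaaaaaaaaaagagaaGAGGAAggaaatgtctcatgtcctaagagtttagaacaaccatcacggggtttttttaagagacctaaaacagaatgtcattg
The motifs were chosen after the expression values had been seen, were searched on both strands over 300 bases (the 50 bases past the start included), and a match is a description of the letters only. The NF-κB consensus was in 8.46% of all 32851 promoter windows and, among the receptors, in those of Tlr2 and Tlr3. In Tlr2 overlapping matches began 173 and 172 bases before the start, and a further one began 8 bases before the start and ran 2 bases past it. The match in Tlr3 began 211 bases before the start. All these matches in Tlr2 and Tlr3 lie inside the annotated gene span. The STAT6-type element was in 6.95% of windows and in Tlr8 alone among the 8 genes, 77 bases before the start. The first letters of that match are also a PU.1-type match on the other strand. GAGGAA was in 28.3% of windows and in Tlr1, Tlr8, Tlr9 and Tlr13. The interferon-stimulated response element GAAANNGAAA was in 3.44% of windows and, on the opposite strand, in that of Tlr6.

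After 4 h of LPS the mRNA values of the receptor genes in these enriched cultures differed from PBS in both directions. Tlr1, Tlr2 and Tlr6, which form the heterodimers for bacterial lipopeptides, and Tlr3, the receptor of double-stranded RNA, were higher. Tlr8, known in humans as a receptor of single-stranded RNA, and Tlr13, a receptor of bacterial ribosomal RNA, were lower. Thus 6 of the 10 receptors were called, 4 higher and 2 lower, where 37.8% of all rows were called, 15.4% higher and 22.4% lower. All rows include many dim ones, and of the receptors only Tlr5 was among the dimmest 33.3%. With these 7071 of the 21212 rows left out, 2799 rows were called higher and 4806 lower. The same fit called 4 receptors higher and 2 lower, so part of the difference from all rows goes with brightness. The values of the LPS and PBS arrays did not overlap for 7 of the 10 receptors, against 45.7% of all rows. The median size of change, whatever its direction, was 0.77 over the receptors and 0.18 over all rows.

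**Figure D1:**
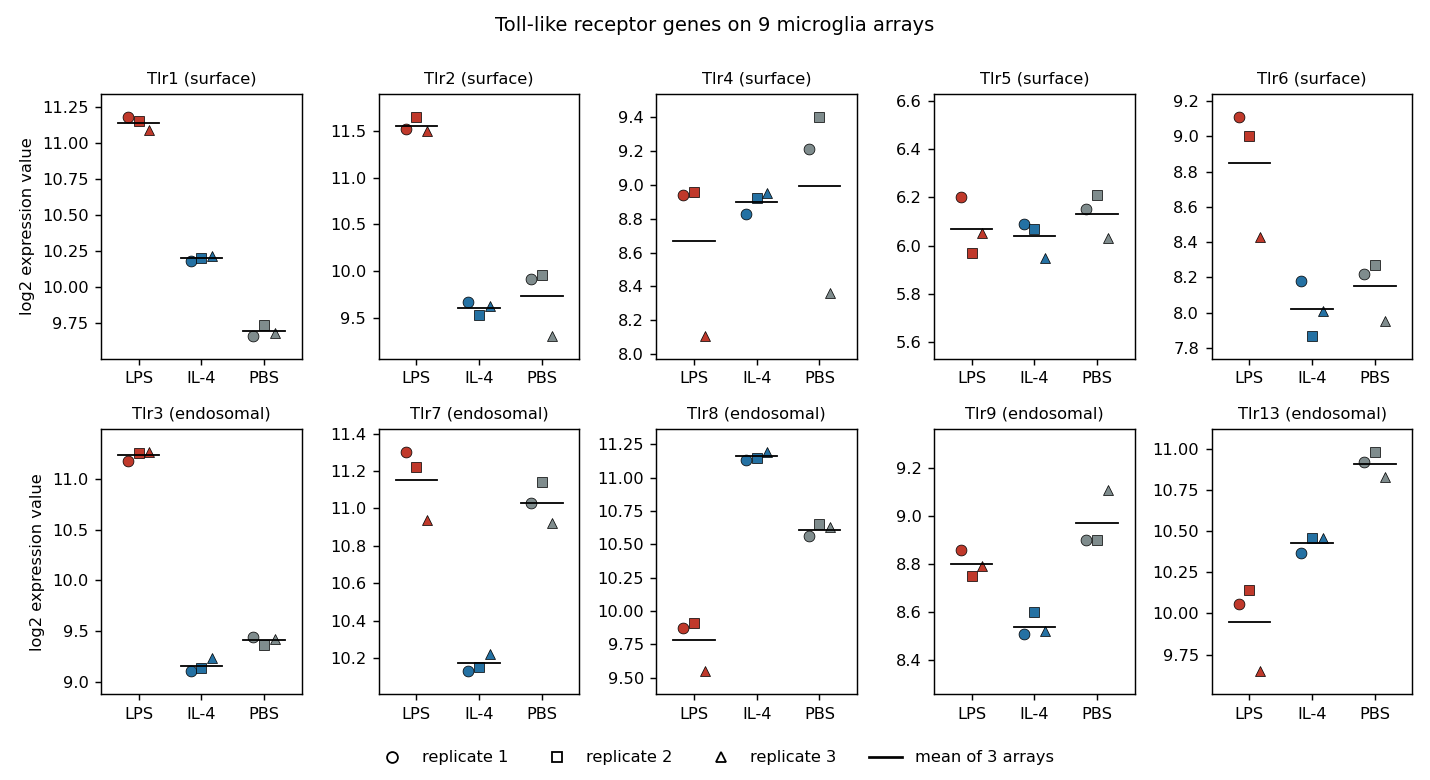
Log2 expression value of each receptor gene (y axis, a range of its own in each panel) on the LPS, IL-4 and PBS arrays (x axis), with a symbol for each replicate number and a line at the mean of 3 arrays. Surface receptors are in the upper row and endosomal receptors in the lower row, and replicate 3 of LPS and of PBS lies low for Tlr4, with 8.11 and 8.36.

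Tlr2, the shared partner of the lipopeptide receptors, was measured at 11.52, 11.65 and 11.50 on the LPS arrays and 9.92, 9.96 and 9.31 on the PBS arrays. All LPS arrays lay above all PBS arrays, by at least 1.54, and PBS replicate 3 was the lowest of its condition. Tlr2 was thus 3.54-fold higher with LPS, with a log2 fold change of 1.83 ± 0.16 (SE, n = 3 each, limma adjusted p = 3.19e-05). Tlr1, which with Tlr2 recognizes triacylated lipopeptides, was measured at 11.18, 11.15 and 11.09 with LPS and 9.66, 9.73 and 9.68 with PBS. The arrays within a condition differed by no more than 0.09, and the conditions were 1.35 apart at the closest. The log2 fold change of Tlr1 was 1.45 ± 0.05 (SE, n = 3 each, limma adjusted p = 9.77e-08), a 2.73-fold rise.

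Tlr6, which with Tlr2 recognizes diacylated lipopeptides, was measured at 9.11, 9.00 and 8.43 with LPS and 8.22, 8.27 and 7.95 with PBS. The conditions did not overlap but came within 0.15 of each other, as LPS replicate 3 lay well under the other LPS arrays. The log2 fold change was 0.70 ± 0.18 (SE, n = 3 each, limma adjusted p = 0.0142). The call was lost without LPS replicate 1 (0.56, adjusted p = 0.0527) and without LPS replicate 2 (0.62, adjusted p = 0.0516), and was kept without both replicates 3 (0.81, adjusted p = 4.25e-04). Tlr1 and Tlr6 are neighbours on chromosome 5 (GRCm38.p6, 64924680 to 64933600 and 64953092 to 64970942) with 19.5 kb and no annotated gene between them. They are closely related in sequence, and how probes that could bind both were treated is not given in the sources used here.

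Tlr3 was measured at 11.18, 11.25 and 11.26 with LPS and 9.44, 9.37 and 9.42 with PBS. The conditions were 1.74 apart at the closest, and neither replicate 3 stood apart for this gene. The log2 fold change was 1.82 ± 0.05 (SE, n = 3 each, limma adjusted p = 5.52e-08), a 3.53-fold rise and the only one among the endosomal receptors that passed the test. In size it lay beside that of Tlr2: the 2 genes ranked 337 and 334 from the largest rise among all 21212 rows.

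Tlr8 and Tlr13 went the other way. Tlr8 was measured at 9.87, 9.91 and 9.55 with LPS and 10.56, 10.65 and 10.63 with PBS, and all LPS arrays were lower. It fell by 0.83 ± 0.09 on the log2 scale (SE, n = 3 each, limma adjusted p = 1.26e-04), which is 1.78-fold lower. Tlr13, which recognizes a sequence of bacterial 23S ribosomal RNA in the mouse, was measured at 10.06, 10.14 and 9.65 with LPS and 10.92, 10.98 and 10.83 with PBS. All LPS arrays were again the lower ones, with LPS replicate 3 the lowest. Tlr13 fell by 0.96 ± 0.12 (SE, n = 3 each, limma adjusted p = 2.63e-04), which is 1.95-fold lower. Without both replicates 3 the changes of Tlr8 and Tlr13 were −0.71 and −0.85 (limma adjusted p = 2.54e-05 and 1.94e-05).

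Tlr4 was measured at 8.94, 8.96 and 8.11 on the LPS arrays and 9.21, 9.40 and 8.36 on the PBS arrays. The conditions overlapped, since replicate 3 lay 0.84 under the mean of the other LPS arrays and 0.94 under the mean of the other PBS arrays. The log2 fold change was −0.32 ± 0.30 (SE, n = 3 each, limma adjusted p = 0.439) with a 95% interval of −1.00 to 0.36. Within pairs of the same replicate number the differences were −0.27, −0.44 and −0.26, lower with LPS in 3 of 3 pairs. With the replicate number as a block on the 6 LPS and PBS arrays the change was −0.32 ± 0.06 (SE) and was called (limma adjusted p = 0.00761), in a fit that called 28.8% of all rows lower. With the block over all 9 arrays it was not called (adjusted p = 0.262). Without LPS replicate 3 alone it was −0.04 and without PBS replicate 3 alone −0.64, and neither was called. Without both replicates 3 it was −0.36 and called (adjusted p = 0.00534, 28.3% of rows lower). On both replicates 3 the ciliated ependymal, oligodendrocyte lineage and astrocyte markers given above were higher, where Tlr4 was lower. The mean of the endothelial markers was lower there, with 6.47 against 6.94 and 6.91 (LPS) and 6.51 against 6.92 and 6.83 (PBS). Of these 8 markers 5 lay below the array median on all 9 arrays. Means of several other lists were lower by less. The part of any list in the result was not tested.

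**Figure D2:**
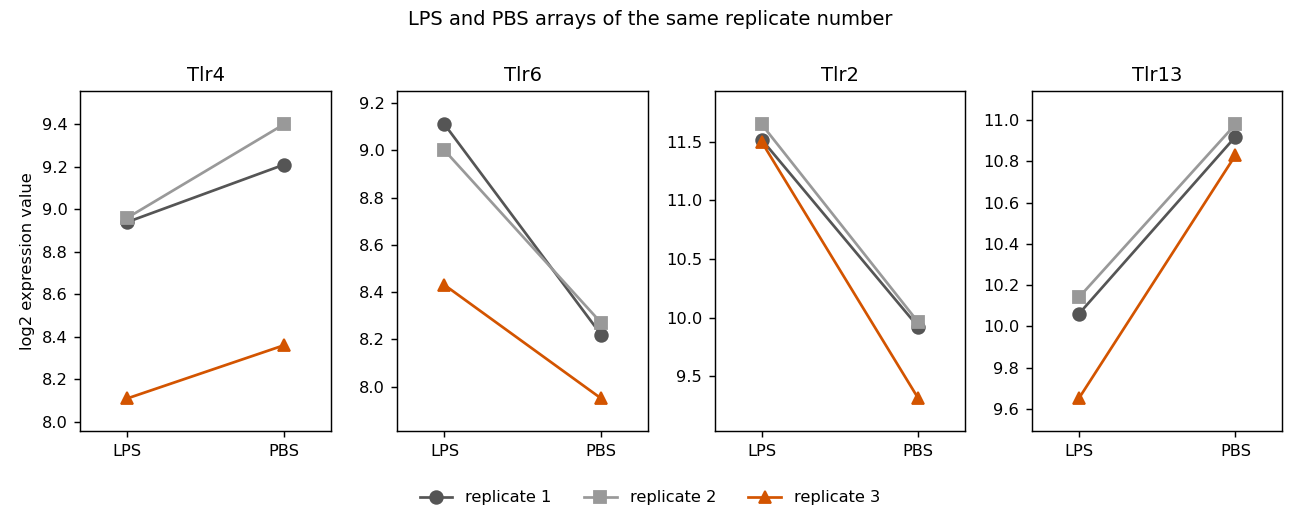
Log2 expression value (y axis, a range of its own in each panel) of Tlr4, Tlr6, Tlr2 and Tlr13 on the LPS and PBS arrays (x axis), with a line joining arrays of the same replicate number. For Tlr4 all 3 lines lie lower at LPS, with differences of −0.27, −0.44 and −0.26, while replicate 3 lies lower in both conditions.

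Tlr7, Tlr9 and Tlr5 did not pass the test with LPS. Tlr7, a receptor of single-stranded RNA, was measured at 11.30, 11.22 and 10.94 with LPS and 11.03, 11.14 and 10.92 with PBS. The conditions overlapped and the log2 fold change was 0.12 ± 0.10 (SE, limma adjusted p = 0.351, 95% interval −0.10 to 0.35), although it was called without LPS replicate 3 (0.23, adjusted p = 0.0385) and without both replicates 3 (0.18, adjusted p = 0.0488, in a fit that called 19.1% of rows higher). Tlr9, the receptor of unmethylated CpG DNA, was measured at 8.86, 8.75 and 8.79 with LPS and 8.90, 8.90 and 9.11 with PBS. The conditions were separated by 0.04 and the change of −0.17 ± 0.07 (SE, adjusted p = 0.0815) missed the threshold. Tlr5, the receptor of flagellin, lay below the array median on all 9 arrays, between 5.97 and 6.20 with LPS and between 6.03 and 6.21 with PBS, and these ranges overlapped (−0.06 ± 0.08, SE, adjusted p = 0.585).

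By place, 3 of the 5 surface receptors were called higher with LPS and none lower, with a median change of 0.70. Of the 5 endosomal receptors 1 was called higher and 2 lower, with a median of −0.17. Over all rows 15.4% were called higher and 22.4% lower, with a median of 0.01. Both groups held members that moved and members that missed the threshold, and no test of one group against the other was made. Of the 14 measured microglia and macrophage markers 9 were called lower with LPS and none higher (median −0.48), and their part in the changes of the receptors was not tested.

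With IL-4 the endosomal receptors Tlr7, Tlr9 and Tlr3 were lower, while the endosomal receptor Tlr8 and the surface receptor Tlr1 were higher. Thus 5 of the 10 receptors were called, 2 higher and 3 lower, where 5.4% of all rows were called, 3.35% higher and 2.05% lower. With the dimmest 7071 of the 21212 rows left out, 843 rows were called higher and 502 lower, and 2 receptors higher and 4 lower. The values of the IL-4 and PBS arrays did not overlap for 6 of the 10 receptors, against 29% of all rows. The IL-4 comparison uses the same PBS arrays as the LPS comparison.

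Tlr7 was measured at 10.13, 10.15 and 10.22 on the IL-4 arrays and 11.03, 11.14 and 10.92 on the PBS arrays. All IL-4 arrays were lower, by at least 0.70, and differed among themselves by only 0.09. Tlr7 fell by 0.86 ± 0.10 on the log2 scale (SE, n = 3 each, limma adjusted p = 0.00183), which is 1.82-fold lower and the 120th largest fall of all rows. Tlr8 was measured at 11.13, 11.15 and 11.19 with IL-4 and 10.56, 10.65 and 10.63 with PBS. All IL-4 arrays were higher, by at least 0.48. The log2 fold change of Tlr8 was 0.54 ± 0.09 (SE, n = 3 each, limma adjusted p = 0.0117), a 1.46-fold rise. Its value hardly moved when 1 array was left out (0.52 to 0.56), but the call was lost, with these adjusted p, without IL-4 replicate 2 (0.0535), without IL-4 replicate 3 (0.0612) and without PBS replicate 1 (0.0532).

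Tlr7 and Tlr8 thus moved apart with IL-4 although they lie next to each other on chromosome X (GRCm38.p6, Tlr8 at 167241123 to 167264329 and Tlr7 at 167303380 to 167330574), with 39 kb and no annotated gene between them. With LPS it was Tlr8 that was called lower while Tlr7 was not called.

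Tlr9 was measured at 8.51, 8.60 and 8.52 with IL-4 and 8.90, 8.90 and 9.11 with PBS, with all IL-4 arrays lower. It fell by 0.43 ± 0.07 (SE, n = 3 each, limma adjusted p = 0.01), and the call was lost without IL-4 replicate 3 (−0.42, adjusted p = 0.053). Tlr3 was measured at 9.11, 9.14 and 9.24 with IL-4 and 9.44, 9.37 and 9.42 with PBS. The conditions did not overlap, but the difference was small. Tlr3 fell by 0.25 ± 0.05 (SE, n = 3 each, limma adjusted p = 0.0325), and of 17 alternatives 9 kept the call and 8 did not. It was lost without each IL-4 array (−0.22 to −0.29, adjusted p = 0.114, 0.127 and 0.0515), without PBS replicate 1 (−0.23, adjusted p = 0.124), without PBS replicate 2 (−0.27, adjusted p = 0.0865), without LPS replicate 2 (−0.25, adjusted p = 0.056) and on the 6 arrays alone (adjusted p = 0.0501).

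Tlr13 was measured at 10.37, 10.46 and 10.46 with IL-4 and 10.92, 10.98 and 10.83 with PBS. All IL-4 arrays were lower by at least 0.37, yet the change of −0.48 ± 0.12 (SE, n = 3 each) just missed the threshold (limma adjusted p = 0.0552). Of 17 alternatives 8 called it, among them the fit without LPS replicate 3 (−0.48, adjusted p = 0.00313) and the fit without both replicates 3 (−0.52, adjusted p = 4.89e-04). Tlr1 was measured at 10.18, 10.20 and 10.21 with IL-4 and 9.66, 9.73 and 9.68 with PBS. It was the only surface receptor called, with all IL-4 arrays above all PBS arrays. The log2 fold change was 0.51 ± 0.05 (SE, n = 3 each, limma adjusted p = 6.12e-04), a 1.42-fold rise, and it was called in 17 of 17 alternatives.

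The other surface receptors overlapped between IL-4 and PBS. Tlr2 was measured at 9.67, 9.53 and 9.63 with IL-4 against 9.92, 9.96 and 9.31 with PBS, a change of −0.12 ± 0.16 (SE, limma adjusted p = 0.708). Tlr4 was measured at 8.83, 8.92 and 8.95 with IL-4 against 9.21, 9.40 and 8.36 with PBS, a change of −0.09 ± 0.30 (SE, adjusted p = 0.89). In both, PBS replicate 3 was the lowest array of the 6 while PBS replicates 1 and 2 were the highest. Without PBS replicate 3 the change of Tlr2 was −0.33 and called (adjusted p = 0.0258). Without both replicates 3 Tlr2 (−0.33, adjusted p = 0.00699), Tlr4 (−0.41, adjusted p = 0.00396) and Tlr13 were called lower as well, 6 receptors in all, in a fit that called 13.5% of all rows lower. The ciliated ependymal markers averaged 8.41 to 8.68 on the IL-4 arrays. They averaged 7.27 and 7.31 on PBS replicates 1 and 2 and 9.06 on PBS replicate 3. Their part in these calls was not tested. With array weights 8 receptors were called lower, in a fit that called 19.6% of all rows lower. Tlr6 and Tlr5 had changes of −0.13 ± 0.18 and −0.10 ± 0.08 (SE, adjusted p = 0.72 and 0.511).

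**Figure D3:**
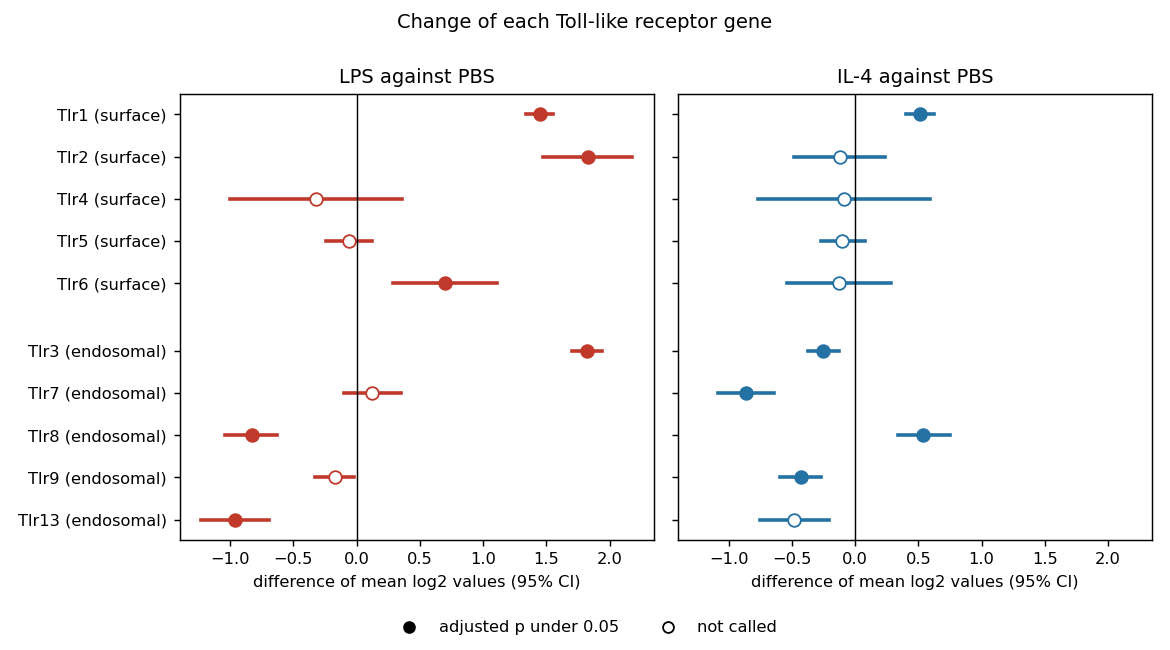
Difference of mean log2 values (x axis) of each receptor gene (y axis, surface receptors above endosomal ones) for LPS against PBS and IL-4 against PBS, with its 95% confidence interval from limma. Filled points passed an adjusted p of 0.05, and Tlr8 lies at −0.83 with LPS and 0.54 with IL-4.

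By place, 1 of the 5 surface receptors was called with IL-4, with a median change of −0.10, and 4 of the 5 endosomal receptors, 1 higher and 3 lower, with a median of −0.43. Over all rows 3.35% were called higher and 2.05% lower, with a median of −0.02. The split by place was not tested, and with array weights all 5 surface receptors were called as well. Fibroblast and meningeal markers also differed between these conditions. The mean of their 10 genes was 9.19 to 9.24 on the IL-4 arrays and 8.48 to 8.55 on the PBS arrays, and 7 of the 10, led by Igf2 with 1.64, were called higher. The 11 measured ciliated ependymal markers had changes of 0.36 to 0.92 with IL-4 (median 0.66), and none was called. The part of these lists in the changes of the receptors was not tested.

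The direct comparison of LPS with IL-4 tested where the effects of the stimuli differed. It called 8 of the 10 receptors, 6 higher and 2 lower with LPS, where 46.9% of all rows were called, 21% higher and 25.9% lower. The LPS and IL-4 values did not overlap for these 8, against 59.9% of all rows. Tlr3 differed most, with a mean of 11.23 ± 0.04 on the LPS arrays and 9.16 ± 0.07 on the IL-4 arrays (SD, n = 3 each), a log2 difference of 2.07 ± 0.05 (SE, limma adjusted p = 2.42e-08). Tlr2 was higher with LPS by 1.94, Tlr7 by 0.99, Tlr1 by 0.94, Tlr6 by 0.83 and Tlr9 by 0.26. The call of Tlr9 was lost without IL-4 replicate 3 (0.25, adjusted p = 0.0523) and without LPS replicate 1 (0.23, adjusted p = 0.0536). Tlr8 averaged 9.78 ± 0.20 with LPS and 11.16 ± 0.03 with IL-4 (SD, n = 3 each), a difference of −1.38 ± 0.09 (SE, limma adjusted p = 6.08e-06). Tlr13 differed by −0.48 (adjusted p = 0.0104), and Tlr4 and Tlr5 were not called (adjusted p = 0.535 and 0.709). In the same comparison 7 of 10 fibroblast and meningeal markers (median −0.81) were lower with LPS. So were 7 of 14 microglia and macrophage markers (median −0.37) and 1 of 11 ciliated ependymal markers (median −1.03), with none higher on these lists. Other lists held higher genes: 5 of 11 neuron markers (1 lower), 5 of 10 neutrophil markers (1 lower) and 5 of 10 B cell and plasmacytoid dendritic cell markers. Of 9 T and NK cell markers 3 were higher and 1 lower. Of 8 endothelial markers 3 were higher and 2 lower, and of 10 oligodendrocyte lineage markers 2 and 1. Of 10 astrocyte markers 1 was higher and 1 lower. The part of these lists in the result was not tested.

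The order of the conditions therefore differed between the genes. Tlr1 ranked PBS, IL-4, LPS and Tlr3 ranked IL-4, PBS, LPS from low to high, with both steps called. Tlr8 had the order LPS, PBS, IL-4 with both steps called, and was the only receptor highest with IL-4. Tlr2 and Tlr6 were highest with LPS, while IL-4 and PBS did not differ beyond their spread. Tlr7 was lowest with IL-4, while LPS and PBS did not differ beyond theirs. Tlr9 was lower with IL-4 than with LPS, and its step between LPS and PBS was not called. Tlr13 was lowest with LPS, and its step between IL-4 and PBS was not called. For Tlr4 and Tlr5 neither step was called.

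**Figure D4:**
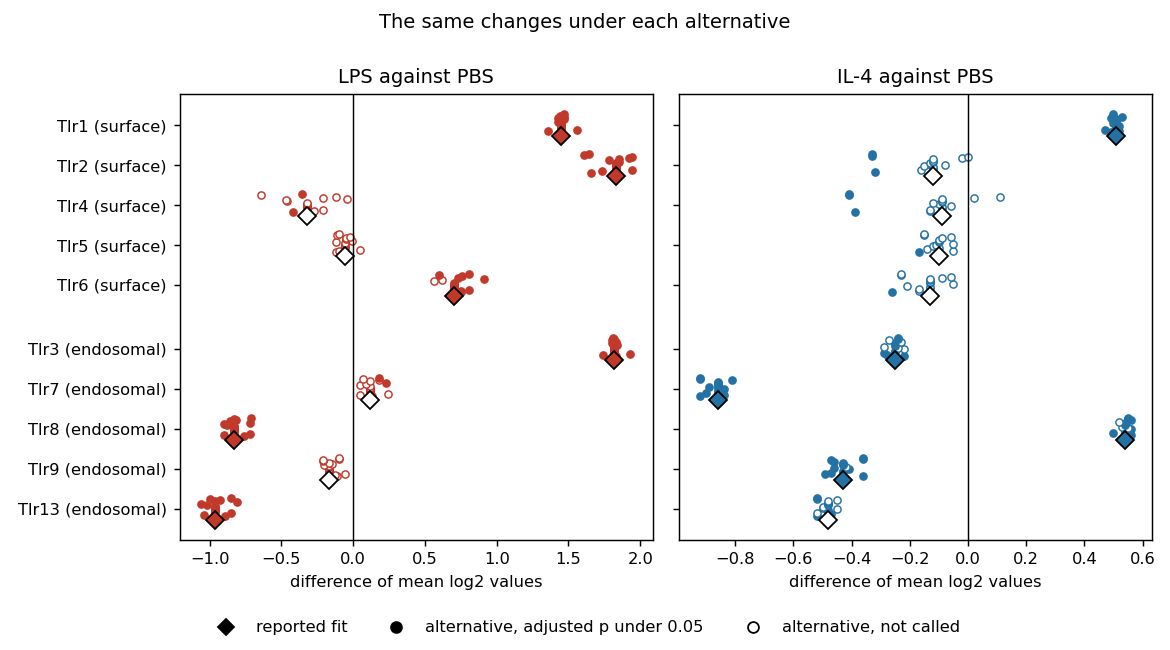
Difference of mean log2 values (x axis, a range of its own in each panel) of each receptor gene for LPS against PBS and IL-4 against PBS, in the reported fit (diamonds) and in each alternative (circles, spread vertically for legibility only). Filled symbols passed an adjusted p of 0.05; Tlr7 with IL-4 stayed filled throughout, while Tlr3 with IL-4 was filled in 9 of 17 alternatives.

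The genes around the receptors changed with LPS as well. Lists were counted beside all rows, of which 15.4% were called higher and 22.4% lower. Of the 22 measured adaptors, kinases and transcription factors, 12 were higher, 3 lower and 7 not called (median 0.28). Irf7, a transcription factor of the interferon response, was higher by 2.48, the ubiquitin ligase Peli1 by 2.17, Myd88 by 1.62 and the kinase Irak2 by 1.46. Ticam1, the adaptor of Tlr3, had a change of 0.31 and Map3k7, the kinase TAK1, of 0.02, and neither passed the test. Of the 6 coreceptors, Cd14, which hands LPS to the Tlr4 complex, was higher by 1.64 and the other 5 were not called. Ly96, the MD-2 partner of Tlr4, had a change of 0.07, while Lbp and Ly86 had −0.09 and −0.19.

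Of the 14 measured genes for trafficking and cleavage of the endosomal receptors, 7 were lower, 2 higher and 5 not called (median −0.23). Pld4, an endolysosomal nuclease, had −0.86, the endosomal transporter Slc15a4 −0.62 and the chaperone Cnpy3 −0.54, while Slc15a3 was higher by 1.20. Unc93b1 itself had a change of −0.11 (adjusted p = 0.171), and the proteases Ctsl and Ctss had −0.05 and −0.23. Of the 12 measured inhibitors 7 were higher, 2 lower and 3 not called (median 1.50). Tnfaip3, the A20 enzyme, was higher by 3.22, Socs1 by 2.81, the nuclease Zc3h12a by 2.40 and Nfkbia, the NF-κB inhibitor, by 2.12, while Cyld and Rnf216 had 0.01 and −0.15.

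The cytosolic nucleic acid sensors and the interferon-stimulated genes were listed beside Tlr3, Tlr7, Tlr8, Tlr9 and Tlr13. With LPS, 5 of the 7 genes on the sensor list were higher and 2 lower. Ifih1, the MDA5 sensor of double-stranded RNA, was higher by 2.89, Zbp1 by 2.41, Dhx58 by 2.09 and the DNA sensor Cgas by 1.15. The 2 lower genes were the adaptors Mavs (−1.08) and Sting1 (−0.46). All 14 measured interferon-stimulated genes were higher (median 2.44), among them Mx1 with 4.48, Mx2 with 4.12, Oasl1 with 3.92 and Rsad2 with 3.58. With IL-4, 4 of the 7 sensors were lower and none higher. Dhx58 had −1.11, Zbp1 −1.00, Ifih1 −0.59 and Aim2 −0.44, and the adaptors Mavs and Sting1 had −0.13 and 0.04 and were not called. Of the 14 interferon-stimulated genes 11 were lower and none higher with IL-4 (median −0.97), with changes of −1.87 for Oas2, −1.30 for Ifit1, −1.27 for Rsad2 and −1.25 for Ifit3, while Bst2 and Cmpk2 had −0.32 and −0.19. For these lists 3.35% of all rows were called higher and 2.05% lower with IL-4.

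The other lists moved less with IL-4. None of the 14 trafficking and cleavage genes was called, with changes of −0.55 to 0.09 and values of −0.14 for Ctsl and −0.11 for Ctsb. Of the 22 adaptors, kinases and transcription factors, only Irak2 was called, with a fall of 0.36 (limma adjusted p = 0.01), and Myd88 and Tab2 had −0.11 and 0.09. Irf7 had the largest change of this list, −1.05, but missed the threshold (limma adjusted p = 0.0558), with PBS arrays at 8.89, 8.87 and 9.84. Of the 6 coreceptors, Cd180, a receptor-like partner of Ly86 on B cells and macrophages, had −0.73 and Cd14 −0.43, both called, and Ly86 and Lbp had −0.31 and −0.17. Of the 12 inhibitors 4 were higher and none lower, Socs1 by 1.21, Nfkbia by 0.71 and Tnfaip3 and Zc3h12a by 0.69 each, while Tank and Tollip had −0.01 and −0.12.

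**Figure D5:**
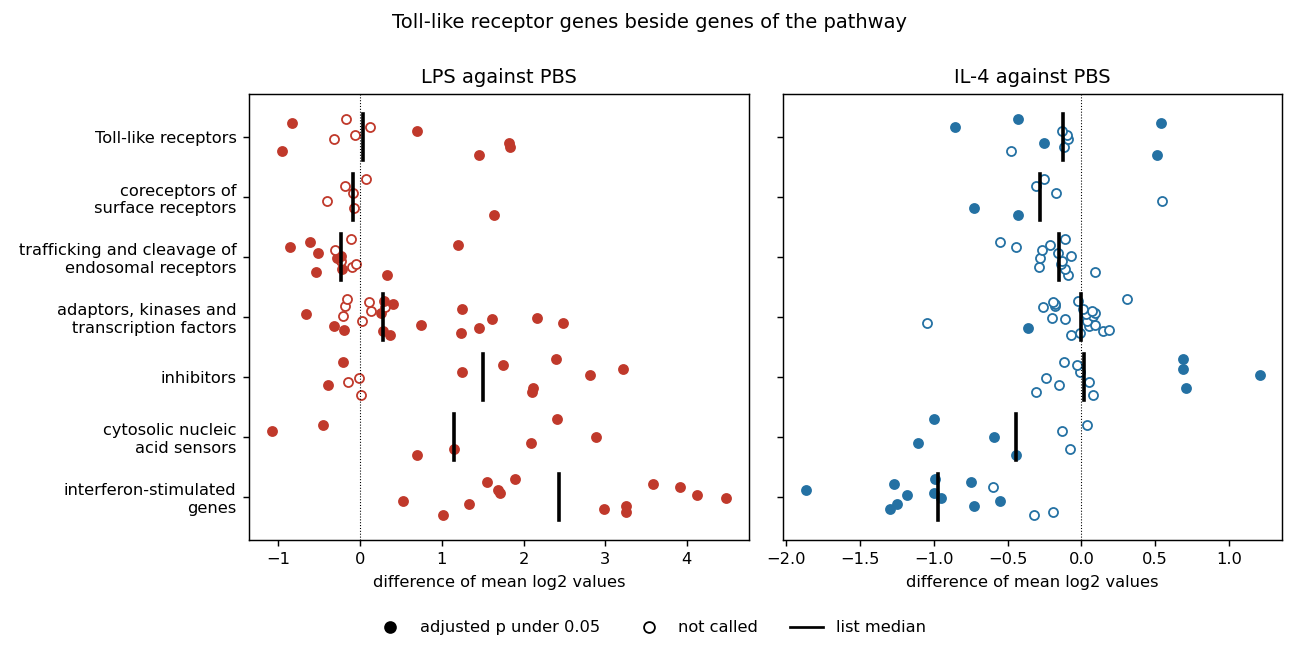
Difference of mean log2 values (x axis, a range of its own in each panel) of the receptor genes and of each list of pathway genes (y axis), for LPS against PBS and IL-4 against PBS. Each point is a gene, filled where its adjusted p was under 0.05, and a line marks the list median, which for the interferon-stimulated genes is 2.44 with LPS and −0.97 with IL-4.

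The genes whose values were most like those of the receptors were sought among 9665 named genes brighter than the median, by Pearson's r over the same 9 arrays, which share their conditions. For Tlr2 they were Tnip1 (0.998), a partner of Tnfaip3, Snx10 (0.997) and Atp10a (0.997). For Tlr7 they were Fcgr4 (0.988), an activating receptor of IgG, Ccng2 (0.987) and Mpp1 (0.984), which had changes of −1.07, −0.71 and −0.61 with IL-4. For Tlr8 they were Nsun3 (0.995), Myo1e (0.995) and Mrpl50 (0.993), and for Tlr13 Cuedc2 (0.992), Fam234a (0.991) and H1f4 (0.991). These are descriptions of 9 points in 3 conditions.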

How the data were processed

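The authors processed the exon arrays with RMA and the affy package (names from the submitters' processing notes, versions not given in the sources used here), and the deposited values are log2 expression values per gene. RMA corrects background, equalizes the arrays by quantiles and summarizes probes. The table held 21212 rows with values of 2.05 to 13.06, of which 18786 had 1 gene symbol, 6 several and 2420 none. Array medians were 7.20 to 7.26 (LPS), 7.37 to 7.39 (IL-4) and 7.32 to 7.37 (PBS).

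Conditions came from the sample labels. All rows were fitted with limma 3.58.1 (R 4.3.3, statmod 1.5.0, lmFit and eBayes, residual df 6, prior df 2.38) over the 9 arrays, each condition having its own mean and the replicate number left out, with Benjamini-Hochberg adjustment across every row. The code of the fit was checked on simulated data with independent errors for each array. A deviation shared between arrays, such as that of replicate 3, was not covered by this check. The number of arrays limits the precision. Deviations from the condition means correlated for same-numbered LPS and PBS arrays (0.578, 0.651 and 0.8). They did so too for LPS replicate 1 with PBS replicate 2 (0.542) and LPS replicate 2 with PBS replicate 1 (0.605). As replicate 3 stood apart in both conditions, replicates 1 and 2 deviate the same way whatever their number. The numbers 1 and 2 were therefore not shown to pair, and a block by number served as an alternative only. Deviations of same-numbered IL-4 and PBS arrays (0.339, −0.255 and 0.0752) were not taken to pair. The receptors, the 17 gene lists, the naming rule and the alternatives were chosen with earlier results of these data known. Every receptor was named, and of each pathway list the 4 genes past the threshold with the largest change and the 2 with the highest mean that missed it. Outside this rule, Ly96, Unc93b1, Mavs and Sting1 were named with LPS and Irf7 with IL-4. Of the 86 pathway genes 77 had a row, and the others were not analysed here. Sequences and positions came from RefSeq (GRCm38.p6). Tables and figures used Python 3.11.15, pandas 2.3.3, numpy 2.4.6 and matplotlib 3.10.9. The miRNA arrays and RT-PCR values were not used here.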

Additional observations from a re-analysis of the deposited data

How the results depend on the processing

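The alternatives were the methods' t-test, the 6 arrays of a comparison alone, array weights, quantile normalization, subtraction of array medians, leaving out the dimmest 33.3% of the rows (7071, among them Tlr5), a block for the replicate number, each array omitted in turn, and leaving out LPS replicate 3 and PBS replicate 3 together. Of 517 values of the receptors under them, 476 kept their side of the threshold, 21 lost a call and 20 gained one. The sign differed in 8 of the 476, for Tlr4 and Tlr5 only, none of them called in either fit. The largest of these was Tlr4 with IL-4 against PBS, at 0.11 without PBS replicate 2.

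For LPS against PBS the counts of receptors stayed at 3 to 5 higher and 2 lower without 1 array. The methods' t-test called 3050 rows lower and lost Tlr6 (adjusted p = 0.117). Subtracting array medians called 5872 rows higher, moved the median of all rows to 0.12 and made 63.9% of calls higher, against 40.8% as deposited. For LPS against IL-4 it moved that median to 0.18, called 9567 rows higher (72.1% of calls against 44.8%), and left 1 receptor lower with LPS, without Tlr13 (−0.33, adjusted p = 0.0563). The methods' t-test also left 1, and lost Tlr6 and Tlr13 (adjusted p = 0.0601 and 0.0821). For IL-4 against PBS subtracting array medians called 459 rows higher (50.3% of calls against 62%). Array weights called Tlr4 lower with LPS against PBS (−0.42, adjusted p = 0.0477). The replicate block changed the call of Tlr4 (adjusted p = 0.00761 on the 6 arrays) and no other receptor's with LPS against PBS. Over all 9 arrays it called Tlr13 with IL-4 (adjusted p = 0.0426), where numbers were not taken to pair the arrays, and changed no other receptor.

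Counts for IL-4 against PBS depended most on the arrays used. The methods' t-test called 434 rows higher and 282 lower and lost Tlr3 and Tlr9 (adjusted p = 0.0808 and 0.0809). Array weights, which gave LPS replicate 3 a weight of 0.195 and PBS replicate 3 one of 0.2, called 4136 and 4159 rows and 8 receptors lower. Without both replicates 3 the counts were 3518 and 2871 rows and 6 receptors lower. Leaving out 1 array gave 281 to 1067 rows higher, 185 to 966 lower, 1 to 2 receptors higher and 1 to 4 lower. The highest counts came without PBS replicate 3, and 1 receptor was lower without IL-4 replicate 3. The receptors lost or gained with a left-out array are named beside their values. The cause was not tested.

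Tlr5 was dim on all arrays. With LPS the intervals were widest for Tlr4, Tlr6 and Tlr2 (SE 0.30, 0.18 and 0.16), while Tlr1 and Tlr3 had an SE of 0.05. Without both replicates 3 the SE of Tlr4, Tlr6 and Tlr2 were 0.07, 0.10 and 0.07.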

Other observations

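Among the other mouse Toll-like receptors, Tlr11 and Tlr12, which recognize profilin of Toxoplasma, were dim. Tlr11 averaged 4.36 ± 0.05 with LPS, 4.24 ± 0.01 with IL-4 and 4.24 ± 0.08 with PBS (SD, n = 3 each), and Tlr12 averaged 5.57 ± 0.13, 5.47 ± 0.07 and 5.53 ± 0.12. Both lay below the array median on all 9 arrays, and neither was called with LPS (0.11 and 0.04, limma adjusted p = 0.143 and 0.75) or with IL-4 (−0.01 and −0.06, limma adjusted p = 0.948 and 0.733).

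Among the 9 microglia and macrophage markers that were lower with LPS, Cx3cr1, the fractalkine receptor, was at −1.80, P2ry12, a purinergic receptor, at −0.85, Trem2 at −0.81 and Csf1r, the M-CSF receptor, at −0.76. With IL-4 only Trem2 of the 14 was called, at −0.47 (limma adjusted p = 0.00302). Of the other cell type lists, 1 of 10 astrocyte markers was higher and 1 lower with LPS, 1 of 10 oligodendrocyte lineage markers was lower, 2 of 11 neuron markers were higher, 1 of 10 fibroblast markers was lower, 3 of 10 neutrophil markers were higher and 1 lower, 3 of 10 B cell and plasmacytoid dendritic cell markers were higher and 1 of 9 T and NK cell markers was lower. None of the 8 endothelial or 11 ciliated ependymal markers was called with LPS. Over all rows 15.4% were called higher and 22.4% lower with LPS. Below the array median on all arrays lay 8 of 10 neutrophil, 7 of 10 B cell and plasmacytoid dendritic cell and 9 of 9 T and NK cell markers. Bst2, among the B cell and plasmacytoid dendritic cell markers that were higher, is also on the list of interferon-stimulated genes. With IL-4, 1 of 11 neuron markers was lower, 2 of 8 endothelial markers were higher, 1 of 10 neutrophil markers was higher and 1 lower, and none of the astrocyte, oligodendrocyte lineage, ciliated ependymal, B cell or T cell markers was called. Over all rows 3.35% were called higher and 2.05% lower with IL-4.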
